A study of Homo sapiens with 8 samples.

Results

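The mRNAs of 45 heat shock and endoplasmic reticulum (ER) chaperone genes were followed in DU145 cells, a human prostate cancer line, with and without the nuclear receptor Esrrb and its synthetic ligand DY131. The genes were taken by symbol from a list that was drawn up with earlier results of these data known, although membership uses no measured value. Every one of the 45 was found among the 23391 genes of the deposited table. HSPA1A and HSPA1B are nearly identical in sequence and were summed, which left 44 genes. By the place where the protein works, 26 were cytosolic heat shock genes, 3 were mitochondrial chaperones and 15 were ER chaperones or ER stress genes. With a filter of at least 1 cpm in at least 2 libraries, 43 genes were tested. HSPA1L had 0 counts in each of the 8 libraries and was not tested. The sum of HSPA1A and HSPA1B reached 1 cpm in the DY131-treated DU145-Esrrb libraries only, so it passed the filter through the group where it is high and is no support for a count that holds it.

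Gene expression was measured by RNA-Seq in 4 groups of 2 biological replicates. DU145-pc3.1 cells carried the empty pcDNA3.1-zeo (+) vector, and DU145-Esrrb cells carried the same vector with Esrrb. Both were pools of Zeocine-selected transfected cells, not clones, so the level of Esrrb can differ from cell to cell. Either pool was left untreated or was given 3 μM DY131, a synthetic ligand of Esrrb and Esrrg. The medium of all groups held charcoal-stripped serum. The length of the DY131 treatment of these libraries is not given in the sources used here. Replicate numbers are known for 6 libraries. The columns of DY131-treated DU145-Esrrb cells share 1 heading and are given here in the order of the table.

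The libraries held between 7858743 and 11551690 counts, and the shallowest pair was that of DY131-treated DU145-Esrrb cells. ESRRB followed the labels, at 8.83 to 16.2 cpm in the DU145-Esrrb libraries and at 0 to 0.286 cpm in the others. Within DU145-Esrrb it was at 8.83 and 9.1 cpm in untreated and at 13.7 and 16.2 cpm in DY131-treated libraries. Whether this difference bears on the response to DY131 was not tested. Epithelial markers were high in all 8 libraries (KRT8 1060 to 1630 cpm, EPCAM 76.9 to 123 cpm). The prostate luminal gene KLK3 had 0 counts in every library. Of the markers of other cell types, COL1A2 and PDGFRB (fibroblasts), PTPRC (leukocytes) and PECAM1 and VWF (endothelium) had at most 8 counts. COL1A1 was at 2.74 to 5.7 cpm, and CD68, which is known from macrophages, at 59.3 to 93.5 cpm in all groups, and their part in the results was not tested. The replicates differed most in DY131-treated DU145-pc3.1 cells, where the variance of the counts was 7.34 times that of counting noise, against 1.3 to 2.67 times in the other groups.

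Cells sense unfolded proteins separately in each compartment. In the cytosol, unfolded proteins draw HSP70 and HSP90 away from the transcription factor HSF1, which then binds heat shock elements in the promoters of chaperone genes. In the ER, the chaperone HSPA5 (BiP) is drawn away from the stress sensors, and the factors XBP1, ATF6 and ATF4 then act on target genes, many of them through the ER stress element. Mitochondria have their own HSP70 and chaperonin. Prostate cancer cells use HSP90 and HSP70 heavily, because many of their receptors and kinases are HSP90 clients.

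The promoters of the members are shown first, since some of the cytosolic genes carry one element there and some of the ER genes another. Among the promoter windows of RefSeq (GRCh38.p14), 250 bases before to 50 bases after each start, 40 of the 44 genes had an entry (23 cytosolic, 3 mitochondrial and 14 ER). Both strands were searched for exact matches. The heat shock element (GAA, 2 free bases, TTC, 2 free bases, GAA) was found for 6 of the 23 cytosolic genes (26.1%), which were DNAJA1, DNAJB6, HSP90AA1, HSP90AB1, HSPA6 and HSPA8. It was also found for the mitochondrial HSPD1, for 0 of the 14 ER genes and for 0.608% of all 27305 genes with a promoter. The ER stress element (CCAAT, 9 free bases, CCACG) was found for 7 of the 14 ER genes (50%), which were CALR, CANX, CRELD2, HSP90B1, HSPA5, PDIA6 and XBP1. It was found for 0 of the cytosolic and mitochondrial genes and for 0.0916% of all genes. The core of the XBP1 element TGACGTGG, whose last bases on the other strand overlap the end of the ER stress element, was found for 0 of the 40 genes and for 0.927% of all genes. The estrogen-related receptor element TCAAGGTCA was likewise found for 0 of the 40 genes, and for 0.432% of all genes. These counts describe letters in a short window and are no measure of binding.

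The heat shock element did not mark the cytosolic genes that rose with DY131. Among its carriers not printed here, DNAJA1 rose in both pools, HSPA6 did not pass the test described below and DNAJB6 fell in DU145-Esrrb cells. HSPH1 and AHSA1 had no match and rose in both pools. For 3 abundant cytosolic genes that rose with DY131, the stretches before the start are printed 5′ to 3′ with the heat shock elements in capitals. They lie at chr11:123062159-123062386 (HSPA8, minus strand), chr14:102087073-102087152 (HSP90AA1, minus strand) and chr6:44247758-44247863 (HSP90AB1, plus strand).
HSPA8: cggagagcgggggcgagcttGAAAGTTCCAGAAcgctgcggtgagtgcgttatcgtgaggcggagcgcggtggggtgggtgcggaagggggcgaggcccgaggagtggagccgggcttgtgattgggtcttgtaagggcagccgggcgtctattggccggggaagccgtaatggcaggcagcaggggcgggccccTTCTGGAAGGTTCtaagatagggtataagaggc
HSP90AA1: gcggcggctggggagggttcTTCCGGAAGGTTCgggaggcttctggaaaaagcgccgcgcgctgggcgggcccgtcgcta
HSP90AB1: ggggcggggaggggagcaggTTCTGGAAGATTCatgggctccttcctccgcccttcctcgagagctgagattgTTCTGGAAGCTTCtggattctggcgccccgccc

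For 5 ER genes the stretches hold the ER stress element in capitals, on either strand. They lie at chr9:125241350-125241429 (HSPA5, minus strand), chr12:103930196-103930359 (HSP90B1, plus strand), chr19:12938364-12938443 (CALR, plus strand), chr22:49918534-49918613 (CRELD2, plus strand) and chr22:28800570-28800641 (XBP1, minus strand). They are shown together because genes with this same element differed in the size of their response to DY131. In DU145-Esrrb cells all 5 log2 fold changes were downward, from -0.12 for HSPA5, which was not past the test, to -1.37 for CRELD2.
HSPA5: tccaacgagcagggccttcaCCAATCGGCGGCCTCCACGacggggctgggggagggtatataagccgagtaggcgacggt
HSP90B1: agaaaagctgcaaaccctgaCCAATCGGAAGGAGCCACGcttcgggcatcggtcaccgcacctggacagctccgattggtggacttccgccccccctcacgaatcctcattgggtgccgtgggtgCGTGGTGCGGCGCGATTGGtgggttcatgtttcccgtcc
CALR: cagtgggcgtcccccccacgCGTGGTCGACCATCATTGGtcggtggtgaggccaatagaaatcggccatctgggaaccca
CRELD2: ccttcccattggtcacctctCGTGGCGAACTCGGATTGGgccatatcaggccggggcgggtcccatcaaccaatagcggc
XBP1: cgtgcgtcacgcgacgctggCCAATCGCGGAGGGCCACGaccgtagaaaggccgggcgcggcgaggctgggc

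In untreated DU145-pc3.1 cells, the HSP90 genes of the cytosol had the highest levels per length. HSP90AB1 was at 958 ± 43.8 and HSP90AA1 at 948 ± 40.9 cpm per kb (SD, n = 2), which did not differ beyond their spread. HSPA8, the constitutive HSP70 of the cytosol, was at 574 ± 15.5 cpm per kb. Of the ER genes, the calcium-binding lectin chaperone CALR was at 438 ± 2.4 cpm per kb, HSP90B1 (GRP94, the HSP90 of the ER) at 424 ± 19.2 and HSPA5 (BiP, the HSP70 of the ER) at 366 ± 2.55. CALR and HSP90B1 did not differ beyond their spread either. The mitochondrial HSPD1 (the HSP60 chaperonin) was at 229 ± 11.9 cpm per kb. All other levels are cpm scaled by TMM (edgeR's trimmed mean of M-values) and compare libraries, not genes. Reads on near-identical copies may be split, and 15.4% of the windows of HSPA8, 17.5% of HSP90AA1, 19.6% of HSP90AB1, 24.8% of HSPD1 and 27.2% of HSPE1 also occur in other annotated transcripts, among them pseudogenes and, for HSPE1, the read-through gene HSPE1-MOB4.

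The summed level of the cytosolic genes was higher with DY131 in either pool, whereas that of the ER genes was lower in DY131-treated DU145-Esrrb cells than in each of the other 3 groups. Cytosolic genes summed to 9000 and 9440 cpm in DU145-pc3.1, 8870 and 9270 cpm in DU145-Esrrb, 13000 and 14300 cpm in DY131-treated DU145-pc3.1 and 14500 and 14200 cpm in DY131-treated DU145-Esrrb cells. ER genes summed to 6590 and 6770 cpm, 6530 and 6440 cpm, 6860 and 6880 cpm, and 4970 and 4960 cpm in the same order. Mitochondrial genes summed to 1270 and 1360 cpm, 1110 and 1180 cpm, 1590 and 1650 cpm, and 1220 and 1190 cpm. The treated libraries of both pools thus lay above the untreated ones for the cytosol, and for the mitochondria only those of DU145-pc3.1 lay above all the others. These sums were neither tested nor corrected for gene structure, and HSPA8, HSP90AA1 and HSP90AB1 made up 77.7% to 85.9% of the cytosolic one. In bulk RNA, a change of level in all cells and a change in some of them cannot be told apart.

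**Figure D1:**
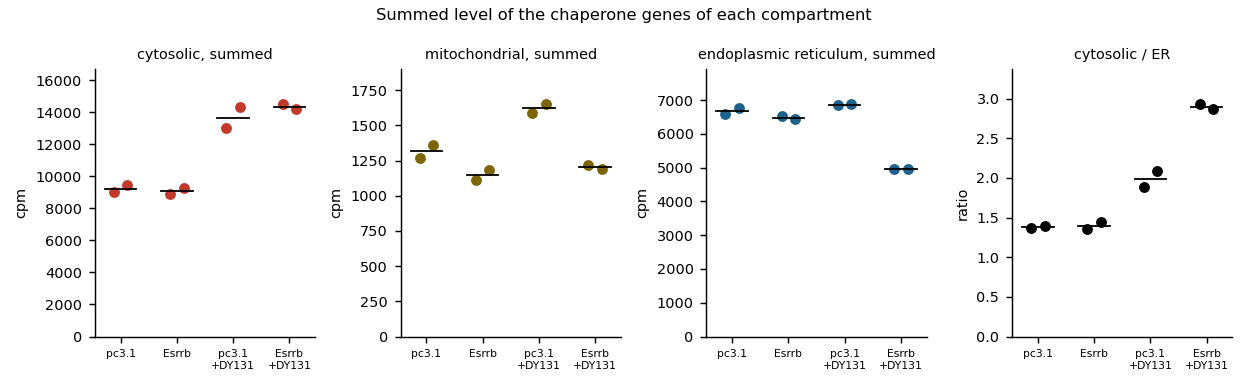
Summed cpm of the cytosolic, mitochondrial and ER members (first 3 panels, from 0) and the ratio of the cytosolic to the ER sum (last panel, from 0) in the 4 groups, with 1 point for each library and a bar at the mean. The ratio lies between 1.36 and 1.44 in the untreated libraries, at 1.89 and 2.09 in DY131-treated DU145-pc3.1 cells and at 2.93 and 2.87 in DY131-treated DU145-Esrrb cells.

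The ratio of the cytosolic to the ER sum separated the groups in the same way. It was 1.37 and 1.4 in DU145-pc3.1, 1.36 and 1.44 in DU145-Esrrb, 1.89 and 2.09 in DY131-treated DU145-pc3.1 and 2.93 and 2.87 in DY131-treated DU145-Esrrb cells. For the pair of HSP90 paralogs of cytosol and ER, HSP90AA1 over HSP90B1, the values ran from 2.61 to 2.89 in untreated cells. They were 3.9 and 4.62 with DY131 in DU145-pc3.1 and 7.81 and 7.59 with DY131 in DU145-Esrrb cells. For HSPA8 over HSPA5, they were 0.885 to 1 in untreated cells, 1.98 and 2.43, and 2.83 and 2.86. The treated libraries did not overlap with the untreated ones in any of these ratios.

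Few of these genes differed with Esrrb alone. Between untreated DU145-Esrrb and DU145-pc3.1 cells, 3 of the 43 members passed the test (edgeR's quasi-likelihood F test, Benjamini-Hochberg adjusted p under 0.05 over 13856 genes), which is 6.98% beside 4.18% of all tested genes. Each of the 3 fell, where 2.5% of all genes fell and 1.68% rose. None passed the study's additional threshold, a log2 fold change of at least 1 either way, which 0.577% of all genes passed. The libraries of the pools did not overlap for 23 of the 43 members, the sum of HSPA1A and HSPA1B included, beside 51.6% of all genes. The mitochondrial HSP70, HSPA9 (mortalin), was at 645 and 685 cpm without and 484 and 528 cpm with Esrrb, a log2 fold change of -0.40 ± 0.06 (SE, adjusted p = 0.00169). The membrane-bound ER lectin chaperone CANX (calnexin) was at 1140 and 1170 cpm without and 927 and 952 cpm with Esrrb (-0.30 ± 0.06, adjusted p = 0.00641). HSPA4, an HSP110-type exchange factor for HSP70, was at 228 and 240 cpm without and 190 and 200 cpm with Esrrb (-0.26 ± 0.06, adjusted p = 0.0167).

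These 3 calls depend on single libraries. Leaving out the first DU145-Esrrb replicate ended all 3, with adjusted p of 0.0672 for HSPA9, 0.124 for CANX and 0.241 for HSPA4. Leaving out the second DU145-Esrrb or the second DU145-pc3.1 replicate ended those on CANX (0.0628 and 0.0923) and HSPA4 (0.0828 and 0.198), and leaving out the first DU145-pc3.1 replicate that on HSPA4 (0.0607). The direction held in each of these fits. Without either DY131-treated DU145-pc3.1 library, which then no longer entered the estimate of the spread, 10 members passed. The medians of the 25 cytosolic, 3 mitochondrial and 15 ER members were -0.02, -0.03 and 0.02 log2, beside 0.00 for all genes. HSPA5 was at 1420 and 1440 cpm without and at 1370 and 1320 cpm with Esrrb (-0.09 ± 0.05, adjusted p = 0.46).

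DY131 in DU145-pc3.1 cells was followed by higher levels of HSPA8, HSPH1 and the cytosolic HSP90 genes. Of the 43 members, 23 passed the test (53.5%), 18 higher and 5 lower, beside 37.4% of all tested genes. Among the cytosolic members, 12 rose and 2 fell, and their median was 0.20 log2. All 3 mitochondrial members rose, with a median of 0.34. Of the 15 ER members, 3 rose and 3 fell, and the median was -0.01. Over all genes, 18.9% rose and 18.5% fell, with a median of 0.00. Only HSPA8 passed the additional threshold of the study, which 580 genes (4.19%) passed. The paper, which used edgeR's exact test, reported instead that DY131 altered no gene in cells without Esrrb. With the exact test here, all 35 calls on named members over the pairwise comparisons were kept. Why the results differ was not tested. Treated and untreated libraries did not overlap for 32 of the 43 members, the sum of HSPA1A and HSPA1B included, beside 65.5% of all genes.

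HSPA8, which folds new proteins and uncoats clathrin vesicles, had the largest rise among the tested members in these cells. It was at 1390 and 1440 cpm in untreated and at 2770 and 3240 cpm in treated libraries, a log2 fold change of 1.09 ± 0.07 (SE, adjusted p = 4.88e-08) or 2.13-fold. HSPH1, an HSP110 exchange factor that works with HSPA8 on aggregated proteins, went from 71.1 and 70.2 cpm to 122 and 115 cpm (0.75 ± 0.06, adjusted p = 6.44e-07). HSP90AA1, the stress-inducible HSP90 of the cytosol, went from 3230 and 3430 cpm to 4720 and 5420 cpm (0.61 ± 0.07, adjusted p = 8.85e-06). In each of these genes the treated libraries lay above the untreated ones, although the 2 treated libraries differed more between themselves than the untreated ones. HSP90AB1, the constitutive HSP90, went from 2380 and 2540 cpm to 3250 and 3340 cpm (0.42 ± 0.06, adjusted p = 6.12e-05). HSPA4 went from 228 and 240 cpm to 322 and 341 cpm (0.50 ± 0.06, adjusted p = 9.17e-06). Of the other risers, DNAJA1 (a J-protein that hands clients to HSP70) rose by 0.51 log2, HSPA4L, a further HSP110-type gene, by 0.55 and STIP1 (which links HSP70 to HSP90) by 0.20. HSPA12A, HSPA14, AHSA1 and HSPB8 passed as higher, between 0.19 and 0.56, and HSPA2 fell by 0.30.

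Other cytosolic members did not pass or were lower. DNAJB1, a J-protein and known target of HSF1, was at 193 and 203 cpm in untreated and at 181 and 193 cpm in treated libraries (-0.08 ± 0.06, adjusted p = 0.276). BAG3, another known target and the co-chaperone that directs HSP70 clients to autophagy, was at 151 and 146 cpm and at 142 and 144 cpm (-0.05 ± 0.06, adjusted p = 0.475). The sum of HSPA1A and HSPA1B, the strictly inducible HSP70 genes, had 4 counts in either untreated library and 2 in either treated one, too few for a comparison. HSPB1 (HSP27), which holds unfolded proteins for HSP70, fell from 160 and 154 cpm to 123 and 137 cpm (-0.28 ± 0.07, adjusted p = 0.00464), a call that ended once length and GC content of the transcripts were corrected for (-0.05, adjusted p = 0.6). HSF1 itself was at 67.5 and 60.4 cpm and at 65.6 and 64 cpm, with overlapping libraries (adjusted p = 0.853).

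The mitochondrial members rose together in DU145-pc3.1 cells. HSPD1 went from 541 and 582 cpm to 724 and 774 cpm (0.41 ± 0.06, adjusted p = 6.27e-05). Its lid HSPE1, the HSP10 co-chaperonin, went from 82.2 and 91.3 cpm to 107 and 113 cpm (0.34 ± 0.07, adjusted p = 0.00107). These genes share a bidirectional promoter. HSPA9 was at 645 and 685 cpm and at 756 and 768 cpm (0.20 ± 0.06, adjusted p = 0.021). In all 3 the treated libraries lay above the untreated ones, but the call on HSPA9 ended without the first untreated replicate (0.16, adjusted p = 0.155) and with the correction for length and GC content (0.11, adjusted p = 0.158).

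In the ER of DU145-pc3.1 cells, the members went different ways. CANX rose from 1140 and 1170 cpm to 1530 and 1630 cpm (0.45 ± 0.06, adjusted p = 1.73e-05). DNAJC3 (p58IPK, a luminal J-protein) rose by 0.37 log2 and DNAJB11, another luminal J-protein, from 84.1 and 85.2 cpm to 108 and 105 cpm (0.33 ± 0.06, adjusted p = 0.000879). HERPUD1, which helps export misfolded proteins for degradation, fell from 68.8 and 74.3 cpm to 54.4 and 46.4 cpm (-0.50 ± 0.09, adjusted p = 0.000299). XBP1, a transcription factor of the ER stress response, fell from 106 and 107 cpm to 81 and 82.7 cpm (-0.38 ± 0.06, adjusted p = 0.000165). These gene counts do not separate its spliced and unspliced mRNA. The most abundant ER chaperones did not pass. HSPA5 was at 1400 and 1330 cpm with DY131 (-0.06 ± 0.05, adjusted p = 0.391), HSP90B1 at 1210 and 1170 cpm (-0.02 ± 0.06, adjusted p = 0.774) and CALR at 774 and 759 cpm (-0.12 ± 0.05, adjusted p = 0.0882). With library size alone in place of TMM, CALR passed as lower (-0.16, adjusted p = 0.0194).

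In DU145-Esrrb cells, DY131 was followed by higher HSPA8 and HSP90 and by lower HSP90B1, CALR and disulfide isomerases. Of the 43 members, 32 passed the test (74.4%), 17 higher and 15 lower, beside 58.7% of all tested genes. Without the sum of HSPA1A and HSPA1B, 31 of 42 passed, 16 higher and 15 lower. Among the cytosolic members 12 rose, that sum included, and 7 fell, with a median of 0.33 log2. Among the mitochondrial ones 1 rose, with a median of -0.03. Of the 15 ER members, 4 rose and 8 fell, with a median of -0.23. Over all genes, 29.2% rose and 29.5% fell, with a median of 0.00. With the additional threshold of the study, 4 members passed, beside 12% of all genes. They were HSPA8 (higher), HSPB11 and CRELD2 (lower) and the sum of HSPA1A and HSPA1B, without which 3 remain. Treated and untreated libraries did not overlap for 41 of the 43 members, the sum of HSPA1A and HSPA1B included, beside 82.2% of all genes.

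**Figure D2:**
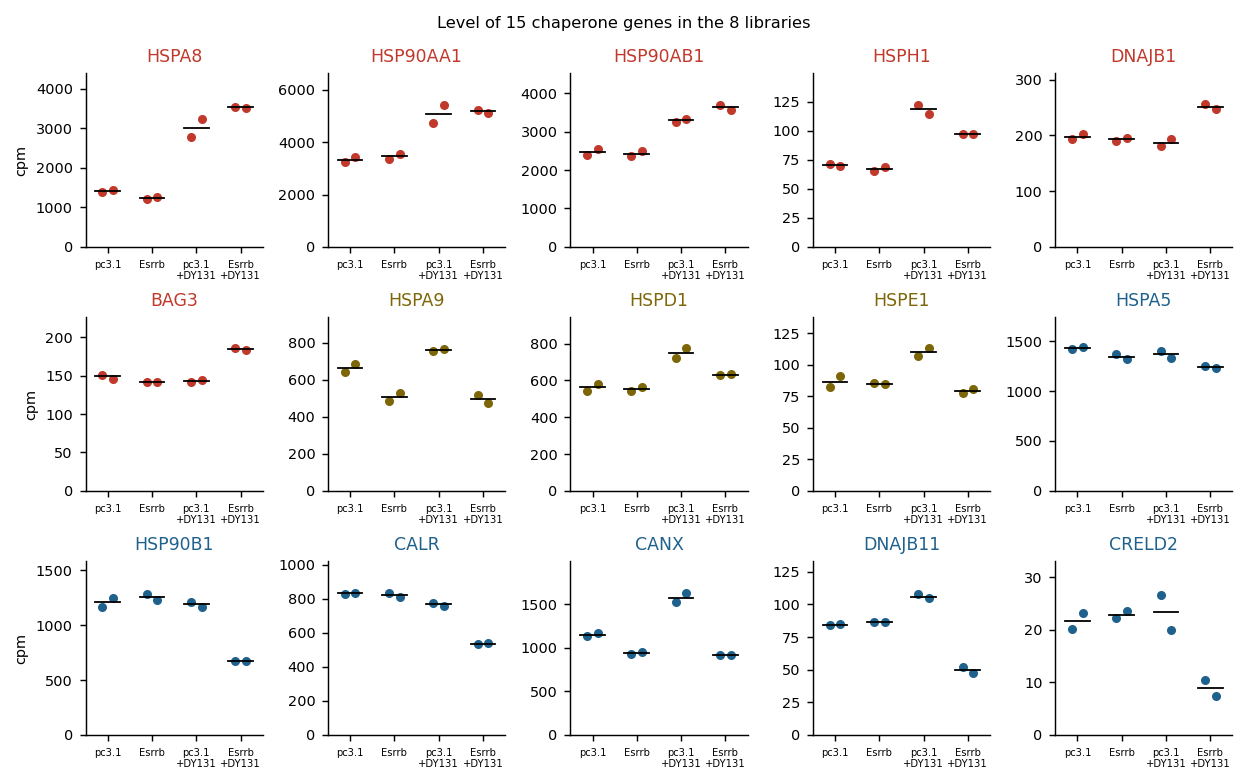
Level in cpm (vertical axes from 0) of 15 members in the 4 groups, with 1 point for each library and a bar at the mean, in red for cytosolic, ochre for mitochondrial and blue for ER genes. HSPA8 lies at 2770 to 3540 cpm in the 4 treated libraries and at 1210 to 1440 cpm in the untreated ones, whereas HSP90B1 is at 671 and 674 cpm in DY131-treated DU145-Esrrb cells and at 1170 to 1290 cpm in the other libraries.

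The counts of DY131-treated DU145-Esrrb cells carried a trend with gene structure, which is given here beside the results. A 50-base read can span the border of exons, and the share of such windows in a transcript was taken for each gene. Over 13663 genes this junction share went with the log2 fold change of DY131 in DU145-Esrrb cells (Spearman's rho of -0.374, a description across genes that share the same libraries). The median was 0.26 log2 in the tenth of genes with the lowest share and -0.55 in the tenth with the highest. In DU145-pc3.1 cells the same rho was 0.0104. The compartments did not stand apart in this measure, with median shares of 16.2% for cytosolic, 16.8% for mitochondrial and 16% for ER members, beside 14.3% for all genes. The members did range from 0% to 34.3%, so the fold changes in DY131-treated DU145-Esrrb cells were also computed with a correction for this share, though the summed levels and ratios were not. With it, 29 members passed, HSPA1A and HSPA1B included, of which 26 were among the 32 passing before and kept their direction, beside 53.4% of all genes. Cytosolic members then showed 11 higher, the sum of HSPA1A and HSPA1B included, and 6 lower, with a median of 0.12. ER members showed 2 higher and 9 lower with a median of -0.25.

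**Figure D3:**
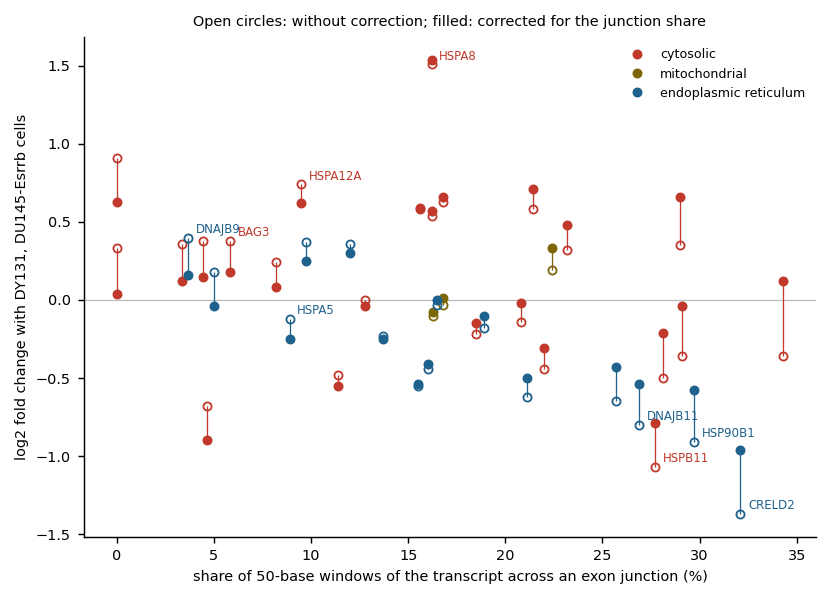
Log2 fold change of DY131 in DU145-Esrrb cells (vertical axis) against the share of 50-base windows across an exon junction (horizontal axis, percent) for the tested members other than the sum of HSPA1A and HSPA1B, with open circles for uncorrected and filled circles for corrected values. HSPA8 is at 1.51 before and 1.54 after the correction, and HSP90B1 at -0.91 before and -0.58 after.

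HSPA8 rose further in these cells than any other abundant chaperone of the cytosol. It went from 1210 and 1270 cpm to 3540 and 3520 cpm (1.51 ± 0.07, adjusted p = 2.23e-10), which is 2.85-fold, and to 1.54 with the correction. HSP90AA1 went from 3370 and 3550 cpm to 5240 and 5110 cpm (0.58 ± 0.07, adjusted p = 3.83e-06). HSP90AB1 went from 2370 and 2490 cpm to 3700 and 3560 cpm (0.58 ± 0.06, adjusted p = 8.41e-07). The treated libraries lay far above the untreated ones in all 3 genes. HSPH1 went from 65.6 and 68.5 cpm to 97.5 and 97.3 cpm (0.54 ± 0.07, adjusted p = 5.17e-06), and the J-protein DNAJA1 rose by 0.63 ± 0.07 (adjusted p = 1.02e-06). Corrected values of these 4 genes were 0.59, 0.71, 0.57 and 0.66, each still past the test. AHSA1, which activates the ATPase of HSP90, rose by 0.35 log2 and by 0.66 with the correction. HSPA12A rose by 0.74 (0.62 corrected), and HSPA2 and DNAJB4 by 0.33 and 0.36, both not past the test when corrected (0.04 and 0.12).

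DNAJB1 and BAG3 rose by similar amounts. DNAJB1 went from 190 and 196 cpm to 256 and 247 cpm (0.38 ± 0.06, adjusted p = 4.54e-05) and BAG3 from 142 and 141 cpm to 186 and 183 cpm (0.38 ± 0.06, adjusted p = 3.24e-05). Few windows of these genes cross a junction, 4.42% and 5.83%, and their corrected values were 0.15 (adjusted p = 0.0341) and 0.18 (adjusted p = 0.0136). HSPA1A and HSPA1B together had 1 and 0 counts in untreated and 13 and 10 counts in treated libraries. In summed counts scaled by library size this was a ratio of 31.5, with a 95% exact interval of 5.12 to 1300 that covers counting error only. It is given as a description, because the sum entered the test through these treated libraries alone. Even the higher value, 1.69 and 1.13 cpm, was very low beside HSPA8, and 72.6% of the windows of HSPA1A occur in HSPA1B, so the level of both is uncertain. HSPA6, another strictly inducible HSP70 that shares 45.5% of its windows with HSPA7, had 6 to 15 counts in all libraries and did not pass.

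**Figure D4:**
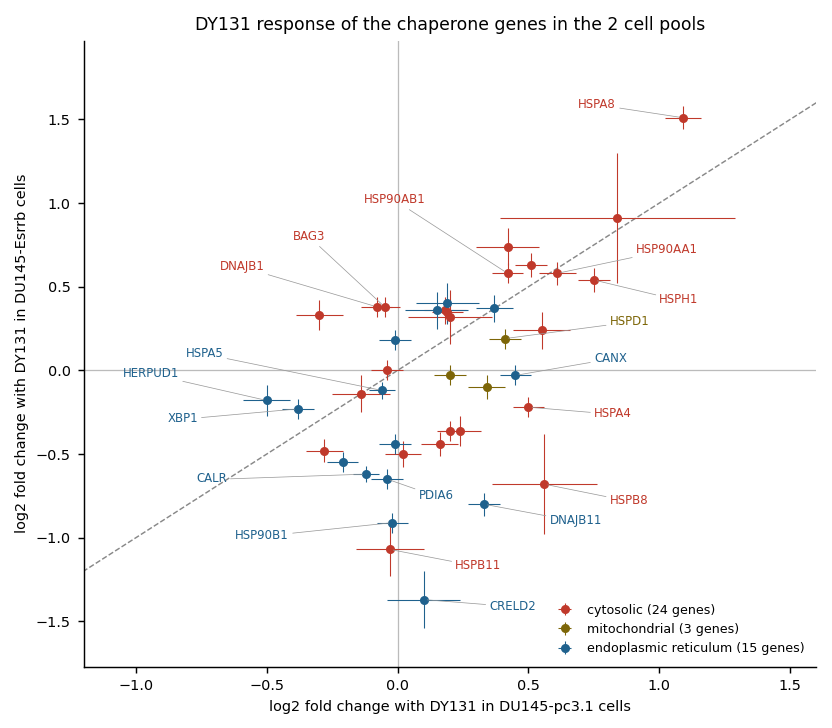
Log2 fold change with DY131 in DU145-Esrrb cells (vertical axis) against that in DU145-pc3.1 cells (horizontal axis) for 42 members, with bars of 1 SE and a dashed line of equal change; the sum of HSPA1A and HSPA1B, whose fitted size depends on the prior count, is left out. ER genes such as HSP90B1, CALR and DNAJB11 lie below the line, and HSPA8 lies above it at 1.09 and 1.51.

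Other cytosolic members fell. HSPB1 went from 140 and 128 cpm to 94.3 and 98.3 cpm (-0.48 ± 0.07, adjusted p = 3.42e-05), and to -0.55 with the junction correction, whereas a correction for length and GC content ended this call (-0.04, adjusted p = 0.629). HSF1 went from 60.6 and 61.7 cpm to 44.6 and 42.2 cpm (-0.50 ± 0.08, adjusted p = 7.58e-05), with a corrected value of -0.21 (adjusted p = 0.0371). HSPB11, named with the small heat shock proteins but known as a protein of intraflagellar transport, went from 12.8 and 11.8 cpm to 5.74 and 5.99 cpm (-1.07 ± 0.16, adjusted p = 3.89e-05) and -0.79 when corrected. In these 3 genes no treated library reached an untreated one. HSPA4 fell from 190 and 200 cpm to 165 and 169 cpm (-0.22 ± 0.06, adjusted p = 0.00509), in the direction opposite to that in DU145-pc3.1 cells. This call ended without the second untreated DU145-Esrrb replicate (-0.19, adjusted p = 0.0519) and without the first treated library in the order of the table (-0.20, adjusted p = 0.0523), and the correction gave -0.15 (adjusted p = 0.0456). STIP1 and HSPA14 each fell by 0.36 log2 but were at -0.04 (adjusted p = 0.533) and 0.12 (adjusted p = 0.284) with the correction. DNAJB6 fell by 0.44, corrected to -0.31.

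Of the mitochondrial members, HSPD1 was at 542 and 564 cpm in untreated and at 629 and 632 cpm in treated DU145-Esrrb libraries (0.19 ± 0.06, adjusted p = 0.012). This call ended without either treated library (adjusted p = 0.0644 and 0.0782) and without the first untreated one (0.115), while the correction gave 0.33 (adjusted p = 0.000252). HSPA9 was at 484 and 528 cpm and at 517 and 476 cpm, with overlapping libraries (-0.03 ± 0.06, adjusted p = 0.735). HSPE1 was at 85.3 and 85 cpm and at 77.3 and 80.9 cpm (-0.10 ± 0.07, adjusted p = 0.221).

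In the ER of DU145-Esrrb cells, the HSP90 of the lumen, calreticulin and the disulfide isomerases fell, while HSPA5 did not pass in the main fit. HSP90B1 fell from 1290 and 1230 cpm to 671 and 674 cpm (-0.91 ± 0.06, adjusted p = 5.89e-09), and to -0.58 (adjusted p = 6.7e-07) with the correction. CALR fell from 836 and 811 cpm to 533 and 540 cpm (-0.62 ± 0.05, adjusted p = 1.51e-07), corrected to -0.50. The disulfide isomerases PDIA3, PDIA4 and PDIA6 fell by 0.44, 0.55 and 0.65 log2, with corrected values of -0.41, -0.54 and -0.43 that each passed. In all of these genes the treated libraries lay below every other library of the study. HSPA5 was at 1370 and 1320 cpm and at 1250 and 1230 cpm (-0.12 ± 0.05, adjusted p = 0.0825). Its libraries did not overlap, and it passed as lower with the correction (-0.25, adjusted p = 0.00143) and with library size alone (-0.18, adjusted p = 0.00754). HSPA5 also passed as lower with the correction for length and GC content (-0.23, adjusted p = 0.00133). The same held with at least 10 counts in every library (-0.15, adjusted p = 0.0191) and in a fit of only the 4 libraries compared (-0.13, adjusted p = 0.00243). CANX was at 927 and 952 cpm and at 922 and 920 cpm (-0.03 ± 0.06, adjusted p = 0.674).

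The J-proteins and stress effectors of the ER did not move together in these cells. DNAJB11, the main luminal J-protein of HSPA5, fell from 86.8 and 86.2 cpm to 51.9 and 47.8 cpm (-0.80 ± 0.07, adjusted p = 1.76e-07), corrected to -0.54. A share of 24.6% of its windows also occurs in another annotated transcript, so its counts may be split. CRELD2, an ER protein with isomerase activity that is secreted under stress, fell from 22.2 and 23.5 cpm to 10.4 and 7.46 cpm (-1.37 ± 0.17, adjusted p = 7.01e-06), corrected to -0.96. DNAJC3 rose by 0.37 log2 (0.25 corrected), SDF2L1, a partner of DNAJB11, by 0.36 (0.30 corrected) and HSPA13, an HSP70 of microsomes, by 0.18, the last not past the test when corrected (-0.04, adjusted p = 0.594). DNAJB9, a J-protein of the degradation pathway, was at 19.4 and 20.2 cpm and at 24.2 and 27.8 cpm (0.40 ± 0.12, adjusted p = 0.012), a call that ended with the correction (0.16, adjusted p = 0.298). XBP1 fell from 105 and 106 cpm to 89.4 and 91.2 cpm (-0.23 ± 0.06, adjusted p = 0.0049). HERPUD1 was at 61 and 61.8 cpm and at 50.8 and 57.2 cpm (-0.18 ± 0.09, adjusted p = 0.0899).

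Whether the response to DY131 differed between the cell pools was tested with the interaction term of the same model. This term shares the untreated and treated libraries of the comparisons above. It passed for 22 of the 43 members (51.2%), beside 33.7% of all tested genes. Only 5 were higher in DU145-Esrrb cells, or 4 without the sum of HSPA1A and HSPA1B, and 17 were lower, whereas over all genes 16.1% were higher and 17.6% lower. Of the 15 ER members 8 were lower and 0 higher, with a median of -0.34. Of the 3 mitochondrial members 2 were lower, with a median of -0.22. Of the 25 cytosolic members 5 were higher and 7 lower, with a median of 0.05, which was -0.03 with the junction correction and 0.03 without that sum. Over all genes the median was 0.00. The threshold of the study was passed by 5 members, or 4 without the sum of HSPA1A and HSPA1B, beside 6.28% of all genes. With the correction 21 members passed, of which 16 were among the 22, beside 22.3% of all genes. Both the 21 and the 16 hold the sum of HSPA1A and HSPA1B. Of the ER members, 8 were then lower and 1 was higher, which was HERPUD1 (0.39, adjusted p = 0.0313).

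The rise of HSPA8 was larger in DU145-Esrrb cells by 0.42 ± 0.10 log2 (SE, adjusted p = 0.00407, corrected 0.43). For HSP90AA1 the difference was -0.03 ± 0.10 (adjusted p = 0.854), for HSP90AB1 0.16 ± 0.08 (adjusted p = 0.151) and for HSPH1 -0.21 ± 0.09 (adjusted p = 0.0921). The difference passed for HSPA8 and not for these HSP90 and HSP110 genes, although HSP90AB1 passed as higher with the correction (0.28, adjusted p = 0.0261). DNAJB1 differed by 0.47 ± 0.08 (adjusted p = 0.000555) and BAG3 by 0.44 ± 0.08 (adjusted p = 0.000695). With the correction both were at 0.22, with adjusted p of 0.0623 and 0.0567, and did not pass. HSPA2, a testis-enriched HSP70 with a transcript of a single exon, differed by 0.64 and did not pass with the correction (0.29, adjusted p = 0.115). HSPA4 differed by -0.72 ± 0.08 (adjusted p = 1.38e-05) and by -0.66 with the correction, since it rose in DU145-pc3.1 and fell in DU145-Esrrb cells.

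In the ER, the differences were those of HSP90B1 (-0.88 ± 0.08, adjusted p = 1.27e-06), DNAJB11 (-1.13 ± 0.09, adjusted p = 5.54e-07), CRELD2 (-1.47 ± 0.23, adjusted p = 0.000181), CALR (-0.50 ± 0.08, adjusted p = 0.000154) and CANX (-0.48 ± 0.08, adjusted p = 0.00031), beside PDIA3, PDIA4 and PDIA6 at -0.43, -0.34 and -0.61. All 8 passed with the correction, at -0.55, -0.86, -1.06, -0.38, -0.46, -0.42, -0.34 and -0.38 in that order. The ER genes that carry the same promoter element were spread over this range. CRELD2, HSP90B1, PDIA6, CALR and CANX were lower, whereas HSPA5 (-0.05 ± 0.08, adjusted p = 0.639) and XBP1 (0.16, adjusted p = 0.182) did not pass. HSPE1 differed by -0.45 ± 0.10 (adjusted p = 0.0029) and HSPD1 by -0.22 ± 0.08 (adjusted p = 0.049), the latter not past the test with the correction (-0.08, adjusted p = 0.542). HSPB8, the small heat shock protein that works with BAG3, went from 4.68 and 5.02 cpm to 6.45 and 7.93 cpm in DU145-pc3.1 and from 2.72 and 2.94 cpm to 2.09 and 1.47 cpm in DU145-Esrrb cells. The rise in DU145-pc3.1 cells (0.56 ± 0.20, adjusted p = 0.0354) was not past the test with DESeq2 (adjusted p = 0.25). Its difference of -1.24 ± 0.36 (adjusted p = 0.0153) was not past the threshold with DESeq2 (adjusted p = 0.102), nor without the second treated DU145-Esrrb library in the order of the table (-1.01, adjusted p = 0.0989).

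Further chaperone genes of each compartment, from lists that hold none of the members, were read in the same way. Of 29 other cytosolic chaperones and co-chaperones 25 were tested, since CRYAB, HSPB2, HSPB3 and HSPB7 had too few counts. With DY131, 13 rose and 2 fell in DU145-pc3.1 cells (60%, beside 37.4% of all genes), with a median of 0.17 log2. In DU145-Esrrb cells 10 rose and 8 fell (72%, beside 58.7% of all genes) with a median of -0.08. Once corrected for the junction share, 11 rose and 4 fell with a median of 0.10, beside 53.4% of all genes called. The largest rises were those of CHORDC1, a partner of HSP90 (0.82 ± 0.08 in DU145-pc3.1 and 1.10 ± 0.08 in DU145-Esrrb cells, 1.24 corrected), and the J-protein DNAJA4 (1.00 ± 0.09 and 1.02 ± 0.09, 0.90 corrected). BAG1, an exchange factor of HSP70, fell by 0.47 and 0.57 log2 (-0.31 corrected). HSF4, a heat shock factor best known from the lens, fell by 1.53 in DU145-Esrrb cells (-0.90 corrected). CCT8, a subunit of the cytosolic chaperonin, had a lower response in DU145-Esrrb cells (-0.90 ± 0.08, corrected -0.42 ± 0.08). The responses of BAG4 and BAG5, further partners of HSP70, were higher there by 0.52 and 0.50, which did not pass when corrected (0.35, adjusted p = 0.0537, and 0.18, adjusted p = 0.117). DNAJB5 fell by 0.29 in DU145-pc3.1 cells.

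Among 25 other ER stress genes, 6 rose and 3 fell with DY131 in DU145-pc3.1 cells (36%, near the 37.4% of all genes), with a median of 0.04. In DU145-Esrrb cells 3 rose and 13 fell (64%, near the 58.7% of all genes) with a median of -0.20. When corrected, 4 rose and 14 fell with a median of -0.19, beside 53.4% of all genes called. For the difference between the pools, 2 were higher and 11 lower (52%, beside 33.7% of all genes), with a median of -0.29. With the correction 2 were again higher and 11 lower, beside 22.3% of all genes, with a median of -0.25. PDIA5, another disulfide isomerase, fell by 1.61 ± 0.16 in DU145-Esrrb cells (adjusted p = 4.74e-07), corrected to -0.85 ± 0.16. ERO1LB, an oxidase that recharges these isomerases, fell by 0.87 (-0.87 corrected), while TXNDC5 rose by 0.25 (0.75 corrected). UGGT1, which tests glycoprotein folding, and PPIB, a prolyl isomerase, rose by 0.55 and 0.40 in DU145-pc3.1 cells. SIL1, an exchange factor of HSPA5, had a response lower by 0.82 in DU145-Esrrb cells (-0.57 corrected, adjusted p = 0.0204). DDIT3 (CHOP), the transcription factor of terminal ER stress, fell by 0.77 ± 0.10 in DU145-pc3.1 (adjusted p = 2.08e-05) and rose by 0.47 ± 0.09 in DU145-Esrrb cells (adjusted p = 0.000343). Its difference of 1.24 ± 0.13 (adjusted p = 6.78e-06) was 1.21 with the correction. ATF4, which acts upstream of DDIT3, fell in both pools, by 0.57 in DU145-pc3.1 and by 0.20 in DU145-Esrrb cells (adjusted p = 0.0161, corrected -0.46). Its response was 0.37 higher in DU145-Esrrb cells, which did not pass with the correction (0.09, adjusted p = 0.56). DDIT3 thus rose in the DU145-Esrrb pool while 8 of the 15 ER members fell. Without DY131, 0 of these 25 genes passed between the pools by edgeR's quasi-likelihood test, its exact test or DESeq2, and 3 were at an unadjusted p under 0.05 in each. Of the other lists, DNAJC7 in the cytosol (-0.26 ± 0.07, adjusted p = 0.0449) and GRPEL2 in the mitochondria (-0.50 ± 0.08, adjusted p = 0.00223) passed as lower with Esrrb.

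Among 9 other mitochondrial chaperones and proteases, 1 rose and 2 fell with DY131 in DU145-pc3.1 cells (33.3%, beside 37.4% of all genes). In DU145-Esrrb cells 1 rose and 4 fell (55.6%, beside 58.7% of all genes), and with the correction too (beside 53.4% of all genes). GRPEL1, the exchange factor of HSPA9, rose by 0.21 and 0.41 log2 (0.20 corrected). The proteases LONP1 and CLPP fell in both pools, by 0.65 and 0.89 log2 (-0.65 corrected) and by 0.20 and 0.59 (-0.46 corrected). TRAP1, the HSP90 of mitochondria, fell by 1.03 ± 0.06 in DU145-Esrrb cells (adjusted p = 4.9e-09, corrected -0.48 ± 0.06), with a response lower by 0.89 ± 0.09 than in DU145-pc3.1 cells (corrected -0.35 ± 0.09). The HSP90 paralogs of the mitochondria and of the ER thus fell in the DY131-treated DU145-Esrrb cells in which those of the cytosol rose.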

How the data were processed

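RNA-Seq libraries (TruSeq Stranded mRNA, 50-base single reads) of the 8 samples were sequenced in the same lane. Trimming used the FASTX-Toolkit and mapping to hg18 used TopHat2. The authors then counted reads per gene with their program MULTICOM-MAP and deposited these raw counts, which are not normalized. How strand and reads with several matches were treated is not given in the sources used here, so genes with near-identical copies or pseudogenes are uncertain. The study describes 2 biological replicates of each transfected pool. In the main fit, p-values rest on a spread per gene that is estimated from all 8 libraries together. Variance over counting noise was 7.34 where control-vector cells received the ligand, and 1.3 to 2.67 elsewhere. The shared estimate can therefore be too low for that group. Standard errors and p-values for DY131 in DU145-pc3.1 cells and for the interaction may then be too small.

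Counts on HSPA1A and HSPA1B were summed. The 13856 genes that reached 1 cpm in 2 or more libraries were scaled with TMM, and all 8 libraries were fitted in 1 model of the 4 groups with the quasi-likelihood F test of edgeR 4.0.16 (R 4.3.3), with Benjamini-Hochberg adjustment and a threshold of 0.05. The study's own test, edgeR's exact test, and DESeq2 1.42.0 were alternatives, as were other scaling, filters and corrections for gene structure. Transcripts, exon junctions and windows shared between genes came from GENCODE release 29 on GRCh38, where RefSeq identifiers placed 22018 genes, current symbols 721 and older symbols 147, and 505 found no match. Promoters came from RefSeq on GRCh38.p14. No hg18 coordinates were used.

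The members, the other lists and the tests were chosen with earlier results of these data known. Named with values were the best-known members of each compartment and, per comparison and compartment, the 3 called members with the largest change and no overlap between the libraries, plus the 2 largest rises and falls of each other list. Members named beyond this rule (such as DNAJA1, AHSA1, STIP1, HSPA2, HSPA4L, HSPA6, DNAJC3, PDIA3, PDIA4 and PDIA6) were chosen after their values were seen. In simulated counts with 200 genes changed by 1.5 log2, 187 of the 196 tested ones were found for DY131 in DU145-pc3.1 cells with 20 false calls, and 167 of 194 for the interaction with 11. In counts simulated with a junction bias alone, 2798 false calls fell to 1 with the correction. That bias was a straight line in the same share that the correction uses, with no true change, so this checks the calculation only. Whether the correction spares true changes that go with gene structure was not tested.

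Depth ran from 7858743 to 11551690 counts per library, at which 3 counts are 0.26 to 0.382 cpm. Intervals from counts cover counting error only. Same-numbered libraries did not deviate together (correlations of 0.0918, 0.0229 and -0.0685), so replicates were not paired.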

Additional observations from a re-analysis of the deposited data

Results flagged for a closer look

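The response to DY131 differed between DU145-Esrrb and DU145-pc3.1 cells for 21 members by the interaction test, which is what marks them for a closer look. The sum of HSPA1A and HSPA1B is not among them, since it passed the filter on low counts through the DY131-treated DU145-Esrrb libraries alone. In the cytosol the differences (log2, DU145-Esrrb minus DU145-pc3.1) were 0.42 for HSPA8, 0.64 for HSPA2, 0.47 for DNAJB1, 0.44 for BAG3, -0.52 for HSF1, -0.72 for HSPA4, -0.56 for STIP1, -0.59 for HSPA14, -0.61 for DNAJB6, -1.04 for HSPB11 and -1.24 for HSPB8. In the mitochondria they were -0.45 for HSPE1 and -0.22 for HSPD1. In the ER they were -0.88 for HSP90B1, -0.50 for CALR, -0.48 for CANX, -0.43 for PDIA3, -0.34 for PDIA4, -0.61 for PDIA6, -1.13 for DNAJB11 and -1.47 for CRELD2. With the correction for exon junction share, BAG3, DNAJB1, HSF1, HSPA14, HSPA2 and HSPD1 did not pass. Past the test only with it were AHSA1 (0.48), HERPUD1 (0.39), HSP90AB1 (0.28), HSPA4L (-0.48) and HSPB1 (-0.29).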

How the results depend on the processing

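Of the 43 members, 3, 23, 32 and 22 passed for Esrrb, for DY131 in DU145-pc3.1, for DY131 in DU145-Esrrb cells and for the interaction. The counts for DY131 and the interaction stayed within 1.5 times under other tests, scaling, filters and corrections. With the study's threshold of a log2 fold change of at least 1, 0, 1, 4 and 5 passed. Leaving out the sum of HSPA1A and HSPA1B made these 0, 1, 3 and 4. For Esrrb, 5 passed with edgeR's exact test, 6 without a filter and 7 in a fit of only the 4 libraries. Leaving out each library gave 0 to 10 for Esrrb, 16 to 24 and 28 to 36 for DY131 and 19 to 27 for the interaction. The lone library left in a group was assumed to vary like the others. Without the sum of HSPA1A and HSPA1B, an alternative chosen after seeing the data, 3, 23, 31 and 21 passed. With the replicate number as a block, possible for 6 libraries, 3 and 23 passed, as without it. Reversed in sign, though not past the test, were BAG3 with DY131 in DU145-pc3.1 cells (0.03 with the length and GC correction), HSP90B1 there (-0.06 to 0.02 on leaving out libraries, the highest without the second untreated DU145-pc3.1 replicate) and the interaction of HSP90AA1 (-0.14 to 0.08, with 0.00 without the first untreated and 0.08 without the second treated DU145-pc3.1 replicate). Over single members and alternatives, 1055 values kept direction and side of the threshold, 40 lost it and 17 gained it. The causes were not tested.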
